A study of Homo sapiens with 9 samples.

Results

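FOS and PTGS2 are inducible genes: FOS encodes a subunit of the transcription factor AP-1, and PTGS2 encodes cyclooxygenase-2. They are 2 of 14812 genes measured on microarrays of WM266-4 cells, an established human line from a melanoma metastasis, here carrying GFP. By lipofection the cells received a miR-199a-3p mimic, a synthetic copy of that microRNA, at 0.5 nM (3 arrays) or at 0.25 nM (3 arrays), or a control microRNA at 0.5 nM (3 arrays). Total RNA was taken 48 h later from biological triplicates of this 1 line, and the 0.25 nM group had no control of its own dose. FOS was chosen by its mean with the mimic, which lay below that of control on these same arrays, and PTGS2 because it is a reported target of miR-199a-3p, with its values known. Their levels by transfection are therefore a description, with no test. Values are log2 RMA intensities of the brightest row per gene, with arrays shifted to the same median, and a difference of 1 on this scale is a doubling.

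AP-1 is a dimer of basic leucine zipper proteins from the FOS, JUN and ATF families. FOS transcription is switched on within minutes by growth factors and stress, through the serum response factor SRF with its partners ELK1 and MRTF and through CREB at a cAMP response element, and its mRNA is short-lived. PTGS2 turns arachidonic acid into the precursor of the prostaglandins. It is also rapidly induced, through CREB, C/EBP and NF-kB sites in its promoter, and is degraded through AU-rich elements. In melanoma, AP-1 composition is linked to MAP kinase output, and cyclooxygenase-2 to inflammation and invasion.

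The mature sequence of the microRNA is shown because it is what the treated cells received in excess. The RefSeq table gives it at 3 loci (GRCh38.p14, minus strand), chr19:10817429-10817450 for MIR199A1, chr1:172144554-172144575 for MIR199A2 and chr9:128244745-128244766 for MIR199B, whose 3p arm has the same 22 bases. Capitals mark the seed, bases 2 to 8.
miR-199a-3p: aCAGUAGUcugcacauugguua

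The promoters of FOS, of PTGS2 and of FOSB, whose values followed those of FOS most closely, are shown as the 250 bases before the RefSeq start of each gene (GRCh38.p14). FOS lies at chr14:75278578-75278827 on the plus strand, FOSB at chr19:45467746-45467995 on the plus strand and PTGS2 at chr1:186680424-186680673 on the minus strand. Capitals mark matches on either strand to the CRE half-site CGTCA, the TATA motif TATAAA and the C/EBP motif TTNNGCAA.
FOS: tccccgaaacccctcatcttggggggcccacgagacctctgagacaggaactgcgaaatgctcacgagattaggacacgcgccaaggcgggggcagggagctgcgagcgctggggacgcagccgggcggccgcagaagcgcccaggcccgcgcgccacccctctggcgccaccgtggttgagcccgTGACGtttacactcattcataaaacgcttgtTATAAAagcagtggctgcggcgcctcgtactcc
FOSB: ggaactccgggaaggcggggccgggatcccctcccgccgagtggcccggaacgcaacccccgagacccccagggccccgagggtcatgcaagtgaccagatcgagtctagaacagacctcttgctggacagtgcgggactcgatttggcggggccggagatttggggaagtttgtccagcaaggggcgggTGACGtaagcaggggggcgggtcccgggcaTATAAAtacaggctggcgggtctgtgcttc
PTGS2: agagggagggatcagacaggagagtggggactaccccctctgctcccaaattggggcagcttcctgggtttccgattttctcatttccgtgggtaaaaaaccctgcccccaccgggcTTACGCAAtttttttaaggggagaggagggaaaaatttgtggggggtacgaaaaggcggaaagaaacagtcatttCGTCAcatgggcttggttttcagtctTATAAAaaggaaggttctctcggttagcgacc

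The 3 promoters shared a CRE half-site just upstream of a TATA motif. The half-site lay 64 to 60 bases before the start in FOS, 60 to 56 in FOSB and 58 to 54 in PTGS2. The TATA motif lay 33 to 28, 30 to 25 and 32 to 27 bases before it in FOS, FOSB and PTGS2. Of 35116 promoters of this length, 21.2% held the half-site and 10.7% the TATA motif. PTGS2 alone of the 3 held the C/EBP motif, 133 to 126 bases before its start, which 9.05% of promoters held. The AP-1 motif TGANTCA had no match in these windows, and nor did the CArG box bound by SRF or the NF-kB motif, each in 1 consensus spelling. They were in 6.57%, 1.16% and 9.96% of promoters. Sites of another spelling or further upstream were not searched for, so no match here does not mean that a promoter lacks the site. No motif overlapped another in the 3 windows, and a match is a description of letters only.

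The arrays carried the label's cell type. Of 8 melanocyte lineage markers 7 were measured, with means from 8.16 (MLANA) to 12.76 (TYR), and their sum over the 6 with no missing value ranged from 67.0 to 67.3 at 0.5 nM, from 66.3 to 66.4 at 0.25 nM and from 66.7 to 66.8 in control. The sum of 3 fibroblast markers (6 listed) ranged from 13.6 to 15.1 at 0.5 nM, 13.3 to 15.3 at 0.25 nM and 13.2 to 14.3 in control. For 3 macrophage markers (5 listed) it ranged from 20.2 to 20.4 at 0.5 nM, 19.3 to 19.5 at 0.25 nM and 20.3 to 20.5 in control. For 3 keratinocyte markers (6 listed, 5 measured) it was at most 13.03 at 0.5 nM, 14.17 at 0.25 nM and 14.01 in control. KRT10 and DSG3 had a missing value and were left out of that sum. Sums over different numbers of genes do not compare the lists. CD68, a lysosomal protein of macrophages and other cells, averaged 9.64, above MLANA. It was lower on all 6 mimic arrays than on all control arrays, as were 22.5% of all genes. The other macrophage markers did not share this: CSF1R lay at 0.39 and -0.36 from control at 0.5 and 0.25 nM, and CD14 at -0.08 and -0.003. A part of cell composition in the values of FOS and PTGS2 was not tested. In bulk RNA, fewer cells expressing a gene and less RNA per cell cannot be told apart.

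The deposited values limit every comparison between transfections. On all 3 arrays exactly equal values were found in 48.6% of rows at 0.5 nM, 42.0% at 0.25 nM and 47.8% in control, with 0 equal values between groups, so the spread within groups is too small a yardstick for differences between them. In replicate 3 of the 0.25 nM group, values with fewer than 10 digits were left out (19.1% of genes). No value of that array had a 0 just after the point, against 4178 to 4774 on the other arrays, and the digit rule also leaves out other values. Small SDs below, such as 0.0063 at 0.5 nM and 0.0097 at 0.25 nM, come from arrays that tied before the shift.

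FOS was lower with the mimic at both doses. It stood at 7.66, 7.65 and 7.51 at 0.5 nM and at 7.64, 7.90 and 7.48 at 0.25 nM, against 7.996, 8.38 and 8.76 in control, for replicates 1, 2 and 3. All 6 mimic arrays lay below all 3 control arrays, which held for 22.5% of all genes, and this is the pattern for which FOS was chosen. Without the shift, 0.25 nM replicate 2 (7.98) lay above control replicate 1 (7.91).

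Group means of FOS were 7.61 ± 0.084 at 0.5 nM, 7.67 ± 0.21 at 0.25 nM and 8.38 ± 0.38 in control (SD, n = 3 each). The differences from control were -0.77 at 0.5 nM and -0.70 at 0.25 nM, or 0.588 and 0.614 of the control level. Both doses share the same control arrays. The 0.5 nM mean was 0.06 below the 0.25 nM mean, less than the SD of either dose.

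The size of the FOS difference depended on the control array it was set against. By replicate number, 0.5 nM minus control was -0.33, -0.72 and -1.24 for replicates 1, 2 and 3, and 0.25 nM minus control was -0.35, -0.48 and -1.28. FOS was thus lower in 3 of 3 numbers at each dose. The values of replicate 3 were the furthest from 0 at both doses, where control was highest and the mimic arrays were lowest. Without control replicate 3 the differences were -0.57 and -0.51, and without control replicate 1 they were -0.95 and -0.89.

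A dimmer row of the table carries the same FOS accession. It stood at 6.02, 6.01 and 6.01 at 0.5 nM and at 6.12 and 6.14 at 0.25 nM (replicate 3 left out), against 6.57, 6.68 and 6.68 in control. The groups did not overlap, and the differences were -0.63 and -0.51. Both rows thus placed FOS lower with the mimic, while the control spread of the brighter row, an SD of 0.38, was 0.067 in the dimmer one. They come from the same RNA, and whether their probes overlap is not given in the sources used here.

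PTGS2 lay slightly above control at both doses. It stood at 6.98, 6.97 and 6.96 at 0.5 nM and at 6.92, 6.91 and 6.91 at 0.25 nM, against 6.78, 6.83 and 6.82 in control. All 6 mimic arrays lay above all 3 control arrays, as for 22.6% of all genes.

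Group means of PTGS2 were 6.97 ± 0.0063 at 0.5 nM, 6.91 ± 0.0097 at 0.25 nM and 6.81 ± 0.030 in control (SD, n = 3 each). The differences were 0.16 and 0.10, or 1.12 and 1.07 times the control level. By replicate number they were 0.20, 0.13 and 0.15 at 0.5 nM and 0.15, 0.07 and 0.09 at 0.25 nM. The RNA means of this reported target did not lie below control on these arrays, which is a description with no test.

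The size of the PTGS2 difference and the order of the doses rested on the scaling. As deposited, all 3 arrays of the 0.5 nM group read 6.98 and all 3 of the 0.25 nM group read 6.99, against 6.69, 6.75 and 6.74 in control. Without the shift the differences were 0.25 and 0.26, and the 0.25 nM group was then the higher of the doses. The shift took 0.09 and 0.16 from them.

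**Figure D1:**
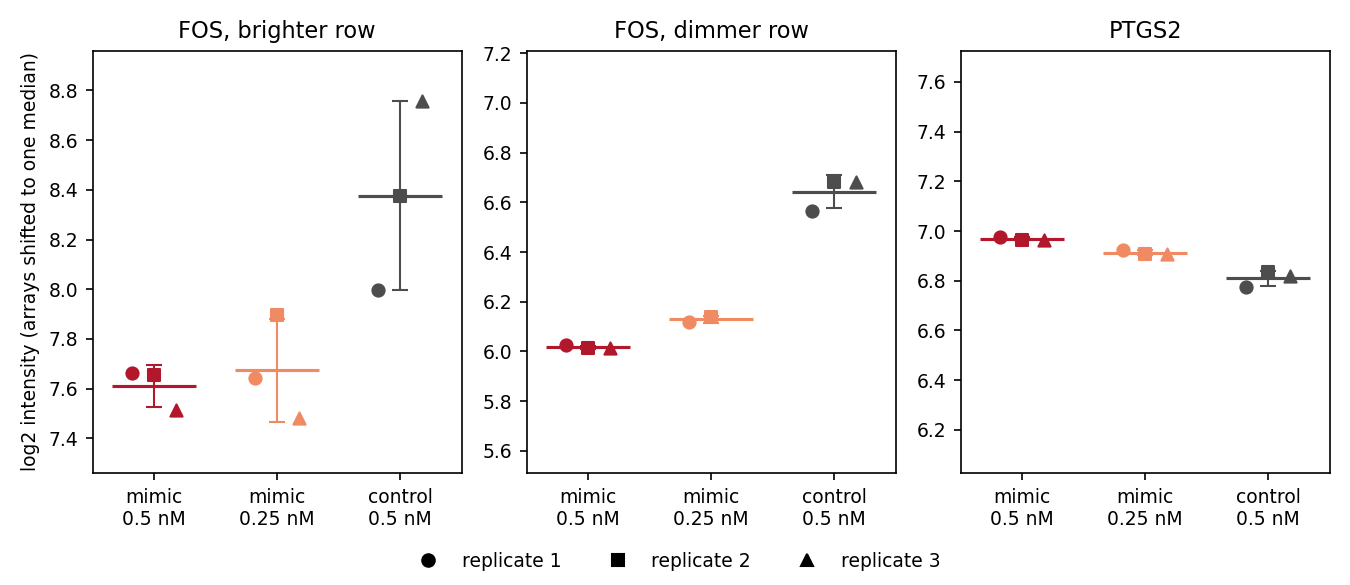
Log2 intensities (arrays shifted to one median) of both FOS rows and of PTGS2 on each array, with symbols for replicate numbers, lines for group means and bars for the SD; every panel spans the same range. FOS averaged 7.61 at 0.5 nM, 7.67 at 0.25 nM and 8.38 in control in its brighter row, while PTGS2 averaged 6.97, 6.91 and 6.81.

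FOSB, a close relative of FOS, was also lower with the mimic, and FOSL1 was higher. FOSB stood at 6.75, 6.85 and 6.80 at 0.5 nM and at 6.82, 7.10 and 6.82 at 0.25 nM, against 7.05, 7.48 and 7.77 in control. At 0.25 nM replicate 2 lay above control replicate 1, so the groups overlapped. FOSB fell, with differences of -0.63 (limma adjusted p = 0.0155) and -0.52 (limma adjusted p = 0.0341). Without the shift the 0.25 nM call was lost (limma adjusted p = 0.124), and with 1 array left out it passed in 2 of 9 fits, without control replicate 1 or without 0.25 nM replicate 2. At 0.5 nM it passed in 9 of 9.

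FOSL1, the FOS-related subunit FRA1, stood at 9.71, 9.72 and 9.72 at 0.5 nM and at 9.63, 9.65 and 9.65 at 0.25 nM, against 9.45, 9.59 and 9.59 in control. It rose by 0.17 (limma adjusted p = 0.00386) and 0.10 (limma adjusted p = 0.0394). With 1 array left out the 0.25 nM call held in 3 of 9 fits, those without a control array. FOSL2, the subunit FRA2, lay at -0.02 and -0.07 with arrays shifted, and at 0.07 and 0.08 as deposited, so it has no settled direction.

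JUN, the main dimer partner of FOS, stood at 7.60, 7.84 and 7.61 at 0.5 nM and at 7.10, 7.84 and 7.63 at 0.25 nM, against 7.80, 8.33 and 8.55 in control. The groups overlapped. JUN lay at -0.54 at 0.5 nM, where it did not pass (limma adjusted p = 0.0920), and fell by 0.70 at 0.25 nM (limma adjusted p = 0.0389). With the replicate number as a block it passed at both (limma adjusted p = 0.0294 and 0.0119). With 1 array left out the 0.25 nM call held in 2 of 9 fits, without control replicate 1 or without 0.25 nM replicate 2, and without the shift it was lost (limma adjusted p = 0.104).

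JUND, a JUN protein with steadier expression, fell by 0.28 and 0.12, and at 0.25 nM lay at 0.04 without the shift, where it passed as higher (limma adjusted p = 0.0266). JUNB lay at -0.02 and -0.04, did not pass, and lay at 0.07 and 0.11 without the shift. ATF3, a stress-induced subunit, stood at 5.73, 5.71 and 5.71 at 0.5 nM and at 5.42, 5.40 and 5.40 at 0.25 nM, against 6.04, 6.23 and 6.23 in control. It fell by 0.45 (limma adjusted p = 0.000134) and 0.77 (limma adjusted p = 6.29e-06). ATF2, a constitutive partner of JUN, fell by 0.09 and 0.23 (n = 2 at 0.25 nM), and did not pass at 0.5 nM without the shift (limma adjusted p = 0.953). JDP2, a repressor that dimerises with JUN, rose by 0.68 at 0.5 nM and lay at 0.09 at 0.25 nM, where it passed only without the shift (limma adjusted p = 0.0132).

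Of the 9 AP-1 subunits measured beside FOS (13 listed), 2 rose, 5 fell and 2 did not pass at 0.5 nM, and 1 rose, 6 fell and 2 did not pass at 0.25 nM. Over all genes limma called 63.3% (33.2% higher and 30.1% lower) at 0.5 nM and 64.2% (30.3% higher and 33.9% lower) at 0.25 nM, so a share of 77.8% called at each dose lies near the background. Without the shift 3 subunits were higher and 3 lower at 0.5 nM, where 45% of all genes were higher and 20.1% lower. At 0.25 nM 4 were then higher and 2 lower, against 50.7% and 17.1% of all genes. Between the doses, 0.5 nM against 0.25 nM, 4 subunits were higher and 1 lower, where 62.2% of all genes passed (35% higher and 27.2% lower). The median change of the 9 was -0.09 and -0.12, beside 0.01 and -0.02 over all genes.

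A stricter limma test took each group mean as 1 unit and set both doses against control, with the error borrowed mostly from genes of similar level. It called 0.128% of genes (0.027% higher and 0.101% lower) and 0 of the 9 subunits. At an unadjusted p under 0.05 it held 3 of them, JUN, FOSB and ATF3, all lower, against 6.56% of all genes in either direction and 3.29% lower. The list of subunits was chosen with earlier results of these data known. It is read here on the contrast by which FOS was chosen, so this share is a description only. The lowest adjusted p among the 9 was 0.151, for JUN, and it was 0.385 for FOSB and 0.625 for ATF3. None of the genes named below from any list passed this test, and FOS is left out of it because it was chosen on this contrast.

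**Figure D2:**
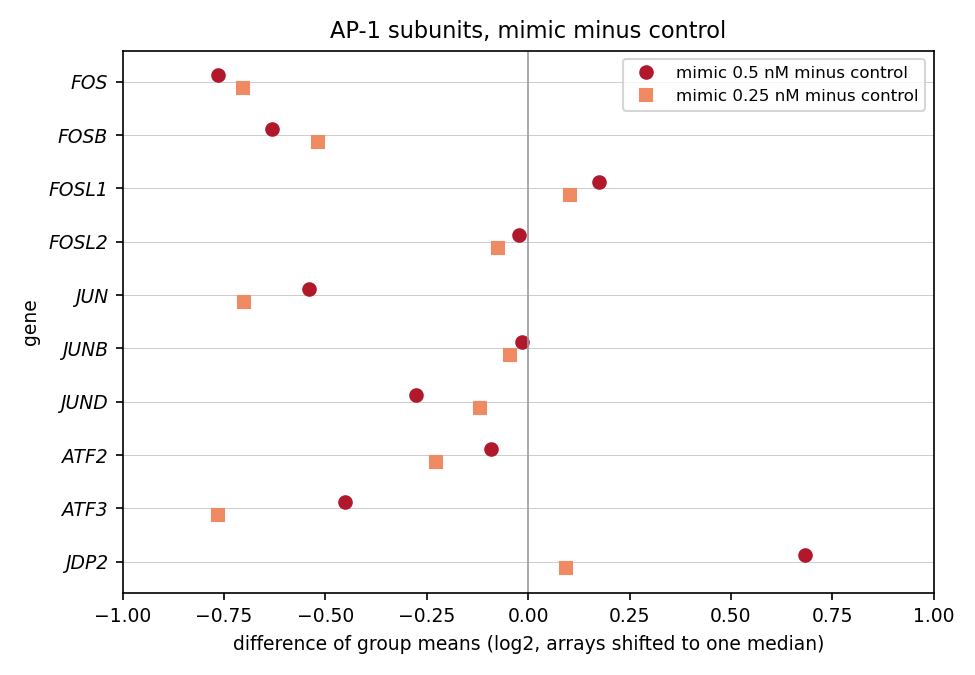
Differences of group means from control (log2, arrays shifted to one median) for FOS and the 9 other AP-1 subunits measured, with circles for 0.5 nM and squares for 0.25 nM. FOS (-0.77 and -0.70), FOSB (-0.63 and -0.52), JUN (-0.54 and -0.70) and ATF3 (-0.45 and -0.77) lie furthest to the left, and FOSL1 lies at 0.17 and 0.10.

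FOSB was also the gene whose values over the arrays were most like those of FOS. Among 7405 genes with a mean above the median of all genes, its Pearson r with FOS over 9 arrays was the highest, at 0.980. ZNRF3, a ubiquitin ligase that removes WNT receptors, followed at 0.966, VPS33B, a trafficking protein, at 0.963, BBS4, a protein of the ciliary BBSome, at 0.959 and ABHD4, a lipase, at 0.957, each over 8 arrays. JUN ranked 158th, with r = 0.862. These values describe likeness over arrays that share groups and replicate numbers.

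Among the genes most like PTGS2 were TATDN3 (r = 0.995 over 9 arrays), PSPC1, a paraspeckle protein (0.994 over 8), CCNG1, cyclin G1 (0.988), and COPS3, a COP9 signalosome subunit (0.986). PTGS2 nearly tied within each mimic dose, while its control arrays ranged over 0.0585, so few distinct levels underlie these values. TATDN3 lay 0.18 and 0.10 above control, beside 0.16 and 0.10 for PTGS2.

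The spread of FOS among control arrays was shared by FOSB, JUN and EGR1. Control SDs were 0.38 for FOS, 0.36 for FOSB, 0.38 for JUN and 0.27 for EGR1, and 98.8%, 98.6%, 98.9% and 96.7% of all genes had a smaller one. In each of these genes replicate 1 was the lowest control array and replicate 3 the highest. This order was not particular to them: it also held in IER2, KLF6, CCND1 and CXCL8, though not in VEGFA. Its share over all genes was not counted. A wide control spread was neither limited to them nor general among early response genes. Control SDs were 0.48 for CCN2 and 0.43 for IER5, but 0.015 for DUSP1 and 0.0060 for TRIB1, all picked here after their values were seen. PTGS2 had a control SD of 0.030, larger than that of 59.6% of genes.

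EGR1, an early response transcription factor that is switched on with FOS, stood at 9.41, 9.47 and 9.44 at 0.5 nM and at 9.49, 9.61 and 9.40 at 0.25 nM, against 9.15, 9.48 and 9.67 in control. Its groups overlapped, and its differences of 0.01 and 0.07 did not pass (limma adjusted p = 0.959 and 0.677). The control arrays thus ranged over 0.53 for EGR1 and 0.76 for FOS, while the group means of EGR1 nearly coincided.

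**Figure D3:**
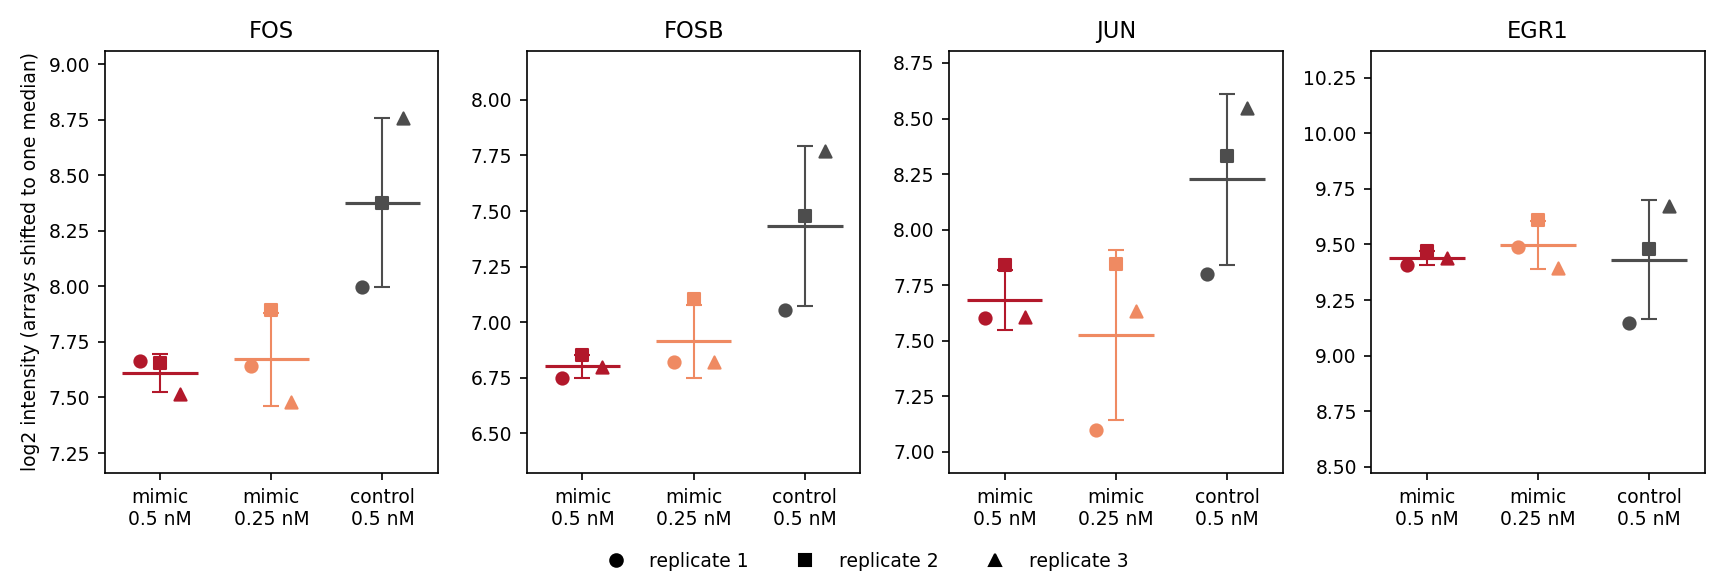
Log2 intensities (arrays shifted to one median) of FOS, FOSB, JUN and EGR1 on each array, with symbols for replicate numbers, lines for group means and bars for the SD. Control replicate 1 is the lowest and control replicate 3 the highest of the control arrays in all 4 genes, and the mean of EGR1 differs from control by 0.01 at 0.5 nM and 0.07 at 0.25 nM.

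Among the 22 other immediate early genes measured (31 listed), 2 rose, 6 fell and 14 did not pass at 0.5 nM, and 1 rose, 4 fell and 17 did not pass at 0.25 nM. These are 36.4% and 22.7% called, beside 63.3% and 64.2% of all genes. With the replicate number as a block 3 rose and 8 fell at 0.5 nM, and 3 rose and 7 fell at 0.25 nM. These are 50% and 45.5% called, in fits that called 9725 and 9982 of all 14812 genes. Without the shift 4 rose and 4 fell at 0.5 nM, where 45% of all genes were higher and 20.1% lower. At 0.25 nM 7 then rose and 2 fell, against 50.7% and 17.1% of all genes. DUSP1, a phosphatase that switches off MAP kinases, stood at 7.57, 7.56 and 7.56 at 0.5 nM and at 7.59, 7.58 and 7.58 at 0.25 nM, against 7.98, 8.01 and 8.01 in control. It fell by 0.44 (limma adjusted p = 2.33e-08) and 0.42 (limma adjusted p = 3.07e-08), with an adjusted p of 0.521 where groups were limma units. IER2, a nuclear early response protein, lay at -0.24 and -0.22 and passed with the replicate number as a block only (limma adjusted p = 0.0148 and 0.0189). KLF6, a zinc finger factor, lay at -0.06 and -0.13 and did not pass. MCL1, a survival protein of the BCL2 family, lay at 0.40 and 0.07 and passed at 0.5 nM with the block only (limma adjusted p = 0.000471).

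Of 11 measured factors and kinases that act on the FOS promoter (19 listed), 5 rose, 1 fell and 5 did not pass at 0.5 nM and at 0.25 nM alike. The share called was 54.5% at each dose, beside 63.3% and 64.2% of all genes. CREB1, which binds the CRE half-site, stood at 8.14, 8.13 and 8.11 at 0.5 nM and at 8.19, 8.17 and 8.17 at 0.25 nM, against 7.77 on all control arrays. It rose by 0.36 and 0.40 (limma adjusted p = 5.31e-08 and 2.98e-08; 0.598 with groups as units). MRTFA, an SRF coactivator, rose by 0.27 and 0.29. MRTFB, its relative, rose by 0.20 at 0.5 nM and lay at -0.02 at 0.25 nM, or at 0.14 without the shift, where it passed (limma adjusted p = 0.00536). STAT3, which also drives FOS, rose by 0.20 at 0.5 nM and lay at 0.14 at 0.25 nM, where it did not pass (limma adjusted p = 0.0551), but passed with the replicate block (0.0271) and without the shift (0.00402). SRF itself lay at -0.13 and -0.03 and did not pass (limma adjusted p = 0.0512 and 0.671).

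Of 11 measured genes that AP-1 is known to activate (20 listed), 1 rose, 1 fell and 9 did not pass at 0.5 nM, and 2 rose, 0 fell and 9 did not pass at 0.25 nM (2 at an unadjusted p under 0.05). The share called was 18.2% at each dose, beside 63.3% and 64.2% of all genes. With the replicate number as a block 2 rose and 3 fell at 0.5 nM, and 4 rose and 0 fell at 0.25 nM. These are 45.5% and 36.4% called, in fits that called 9725 and 9982 of all 14812 genes. MMP10, named after its values were seen, is among the risers at 0.25 nM in both fits. It rose by 0.07 at a mean of 3.22, where the median of all genes was 6.25, with control arrays tied. CD44, also named after its values were seen, fell by 0.19 at 0.5 nM (limma adjusted p = 0.0292). Without the shift it did not pass there (limma adjusted p = 0.190). The list then held 2 higher and 0 lower at 0.5 nM, and 4 higher and 0 lower at 0.25 nM. Of all genes 45% were then higher and 20.1% lower at 0.5 nM, and 50.7% and 17.1% at 0.25 nM. HMOX1, heme oxygenase, stood at 6.97, 7.42 and 7.42 at 0.5 nM and at 7.29, 7.55 and 7.55 at 0.25 nM, against 6.56, 6.85 and 6.89 in control. It rose by 0.50 (limma adjusted p = 0.0244) and 0.69 (limma adjusted p = 0.00558), while FOS was lower. CCND1, cyclin D1, lay at -0.15 and -0.04, VEGFA, an angiogenic growth factor, at 0.08 and 0.16, TIMP1, a metalloprotease inhibitor, at -0.10 and -0.04 and SPP1, osteopontin, at -0.05 and -0.02, and none of these 4 passed. Without the shift SPP1 lay at 0.14 at 0.25 nM and passed (limma adjusted p = 0.00372). CCND1 and TIMP1 passed at 0.5 nM with the block (limma adjusted p = 0.00282 and 0.0439).

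The replicate number is a contrast that did not enter the choice of FOS and PTGS2. That replicate 1 stands apart was, however, seen in these same values. The fit also counts arrays with the same number as separate. Calls by replicate, here and below, are therefore a description. The list of AP-1 targets was also chosen with earlier results of these data known, so its share here is a description only. With group as a block, replicate 1 differed from replicates 2 and 3 in 8 of the 11 (72.7%), 3 higher and 5 lower, where limma called 6.18% of all genes (1.85% higher and 4.33% lower). Without control replicate 1 the balance over all genes turned, to 3103 higher and 847 lower, against 274 and 642 with it, and 9 of the 11 targets then passed. VEGFA stood at 8.84 in replicate 1, against 7.66 and 7.79 in replicates 2 and 3, at 0.5 nM, and at 8.73 against 7.91 and 7.91 at 0.25 nM. In control it stood at 8.53, against 7.73 and 7.80. Its difference was 0.90 (limma adjusted p = 0.00181). MMP1, the collagenase, lay at -1.33 (limma adjusted p = 0.00256) and CXCL8, a chemokine, at -0.77 (limma adjusted p = 0.0169); both were named after their values were seen.

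FOS and PTGS2 themselves did not pass this comparison. FOS lay at -0.18 ± 0.17 (SE; limma adjusted p = 0.445) and PTGS2 at -0.01 ± 0.014 (SE; limma adjusted p = 0.691). In the FOS values replicate 1 was the lowest array in control but not at either dose. Of the 9 other subunits 0 passed (limma, 1 at an unadjusted p under 0.05), and of the 22 immediate early genes 1 was higher and 7 lower in replicate 1. MCL1, with the lowest adjusted p of these, lay at -0.50 (limma adjusted p = 0.000766), and IER5, an early response protein named after its values were seen, lay at -0.59 (limma adjusted p = 0.00441). What the replicate numbers stand for beyond biological triplicates is not given in the labels.

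**Figure D4:**
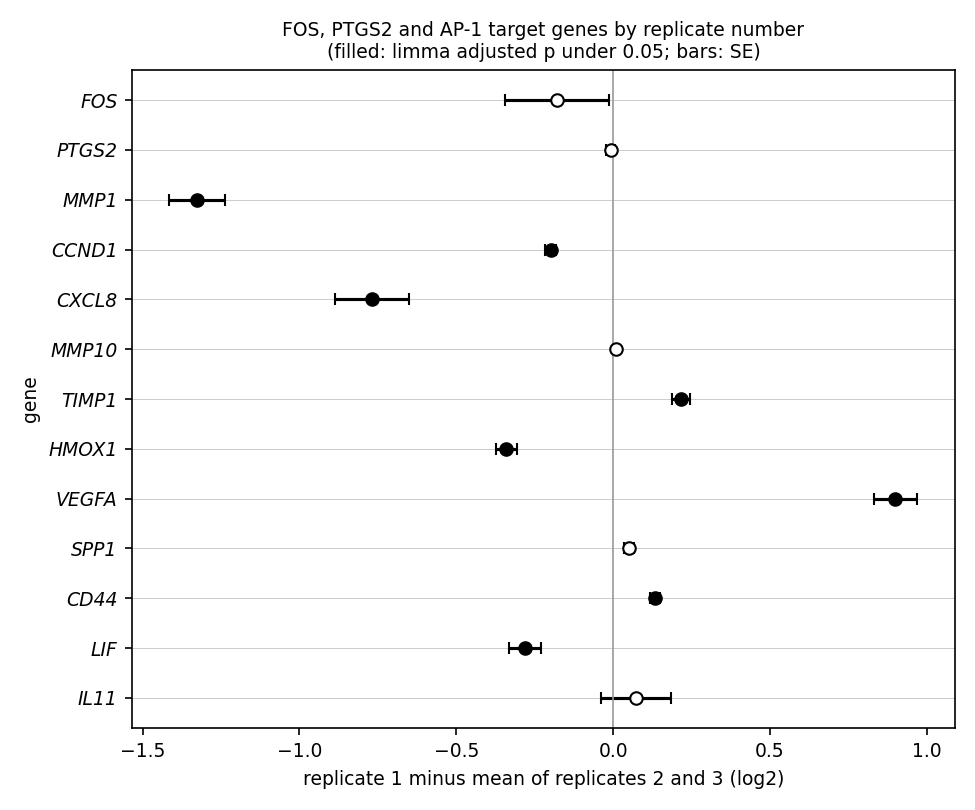
Difference of replicate 1 from the mean of replicates 2 and 3 (log2, group as a block) for FOS, PTGS2 and 11 AP-1 target genes, with bars for the SE and filled points where the limma adjusted p was under 0.05. FOS (-0.18) and PTGS2 (-0.01) are open points near 0, while VEGFA lies at 0.90 and MMP1 at -1.33.

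Of 10 other genes of prostanoid synthesis and breakdown measured (14 listed), 2 rose, 3 fell and 5 did not pass at 0.5 nM, and 2 rose, 2 fell and 6 did not pass at 0.25 nM. These are 50% and 40% called, beside 63.3% and 64.2% of all genes. Their median change was -0.20 and -0.09, beside 0.01 and -0.02 over all genes. PTGES3, a prostaglandin E synthase and HSP90 co-chaperone, stood at 10.61, 10.60 and 10.59 at 0.5 nM and at 10.62, 10.65 and 10.70 at 0.25 nM, against 10.81, 10.85 and 10.81 in control. It fell by 0.22 and 0.16 (limma adjusted p = 6.34e-05 and 0.000366), although without the shift it lay at -0.13 and -0.01, where the 0.25 nM call was lost (limma adjusted p = 0.801). CBR1, a carbonyl reductase that acts on prostaglandins, fell by 0.26 and 0.15, and lay at 0.01 at 0.25 nM without the shift (limma adjusted p = 0.834). PTGES2, another synthase, fell by 0.23 at 0.5 nM, though not without the shift (limma adjusted p = 0.168), and lay at -0.10 at 0.25 nM, where it did not pass.

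PTGES, the inducible prostaglandin E synthase that is coupled to cyclooxygenase-2, passed by replicate and did not pass by transfection. It stood at 8.07, 7.33 and 7.30 at 0.5 nM and at 8.19, 7.59 and 7.58 at 0.25 nM, against 8.16, 7.54 and 7.54 in control. Replicate 1 was the highest array of every group, by 0.66 on average (limma adjusted p = 0.000294), while its differences from control, -0.18 and 0.04, did not pass. With the replicate number as a block the fall at 0.5 nM passed (limma adjusted p = 0.00855). Its call by replicate is a description, and whether its effect of replicate differs from that of PTGS2 was not tested.

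Of the 7 prostanoid receptors measured (9 listed), 3 rose, 1 fell and 3 did not pass at 0.5 nM, and 2 rose, 2 fell and 3 did not pass at 0.25 nM. The share called was 57.1% at each dose, beside 63.3% and 64.2% of all genes. TBXA2R, the thromboxane receptor, stood at 6.69, 6.68 and 6.71 at 0.5 nM and at 6.64, 6.62 and 6.62 at 0.25 nM, against 6.81, 6.92 and 6.87 in control. It fell by 0.17 and 0.23, and was the single receptor with a mean above the median of all genes.

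Of 6 measured regulators of the PTGS2 promoter and mRNA (18 listed), 2 rose, 0 fell and 4 did not pass at each dose (2 at an unadjusted p under 0.05 at each). This is 33.3% called, beside 63.3% and 64.2% of all genes. Among all genes 33.2% and 30.3% were higher. The risers were CREB1 and RELA, an NF-kB subunit, which lay at 8.87, 8.86 and 8.86 at 0.5 nM and at 8.79, 8.77 and 8.77 at 0.25 nM, against 8.71 on all control arrays. RELA rose by 0.15 and 0.07 (limma adjusted p = 2.13e-06 and 0.000248; 0.967 with groups as units). NFKB1, its partner, lay at 0.08 and -0.15, USF1, an E-box factor, at -0.15 and -0.10, and KHSRP, a protein that promotes decay of AU-rich mRNA, at -0.00114 and -0.02, and none of these 3 passed.

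**Figure D5:**
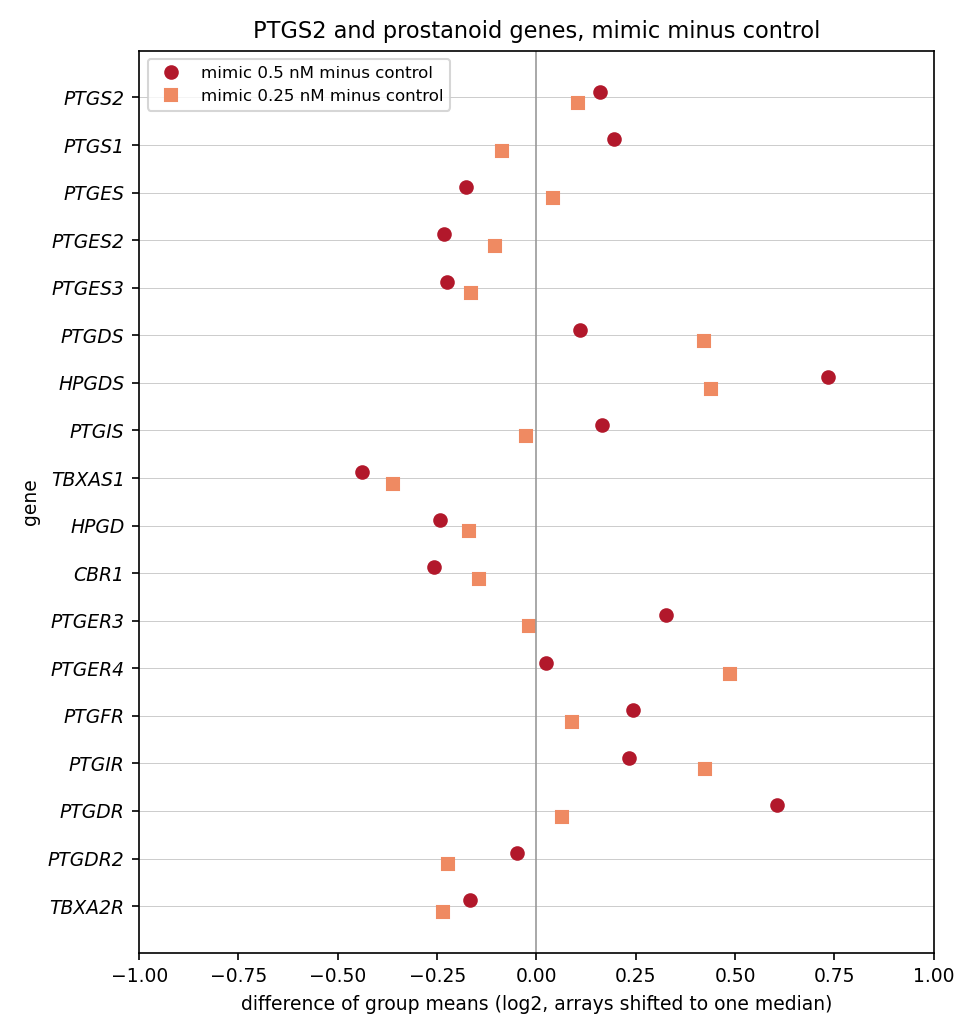
Differences of group means from control (log2, arrays shifted to one median) for PTGS2, 10 other genes of prostanoid synthesis and breakdown and 7 receptors, with circles for 0.5 nM and squares for 0.25 nM. PTGS2 lies at 0.16 and 0.10, and the genes around it fall on both sides of 0.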

How the data were processed

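The authors deposited 1 table of 44629 rows and 9 columns of log2 intensities; RMA, oligo and affy are named per the submitters' processing notes, and no version or build was given in those sources. The platform's annotation gave exactly 1 symbol to 15835 rows, several to 0 and left 28794 unnamed; all 15835 gene IDs matched RefSeq. The brightest row per gene was kept (14812 genes). Values of 0.25 nM replicate 3 with fewer than 10 digits were left out, and arrays were shifted to the same median over genes with no missing value. The median change over all genes before the shift was 0.10 and 0.14. Tests used limma 3.58.1 in R 4.3.3, two-sided, with Benjamini-Hochberg adjustment over all 14812 genes at 0.05, in 1 model over 9 arrays. Beside it, a limma fit with a trend on intensity took the 3 group means as units (35.9 prior degrees of freedom). Replicate 1 was set against replicates 2 and 3 with group as a block. The fits were tested on simulated data with independent noise on every array and no tied arrays. Those runs therefore cannot show whether calls between the real groups are right.

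Replicate numbers are shared by the groups. Deviations from group means of same-numbered arrays correlated across genes at 0.13 to 0.59 in all 9 pairs (other pairs -0.46 to 0.36). Replicate 1 stood apart, at 0.49 to 0.59 between its arrays, which comes from the values and not from a label. Replicates 2 and 3 were not told apart. With 0.5 nM replicates 2 and 3, control replicate 3 correlated at 0.32 and 0.13, and control replicate 2 at 0.35 and 0.16. Their pairing, in fits with a replicate block and in differences by replicate number, thus rests on the numbers alone. The main fit took no pairing. P-values of the fits on arrays measure the spread between these arrays. In the test on group means the error came from the difference between the doses and, mostly, from other genes. A true difference between the doses would count as error there.

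Named genes are FOS, PTGS2 and every AP-1 subunit measured, of each other list the first 5 in written order with a mean above the median of all genes, any that passed the test on group means, and the 5 genes most alike by Pearson r over at least 8 arrays, of which 1 for PTGS2 is not reported here. The genes and lists were chosen with earlier results of these data known. Sequences are from RefSeq tables of GRCh38.p14. Listed genes without a named row were not analysed here. No probe was called above or below background, so the limit of detection is unknown.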

Additional observations from a re-analysis of the deposited data

How the results depend on the processing

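Of 133 recomputed values, mostly counts of genes, 116 stayed close to the reported ones and 17 moved. The rule for close was wide: it took in 4 lower AP-1 subunits against 6 at 0.25 nM, and -0.95 against -0.77 for FOS at 0.5 nM. Leaving out an array of the dose not compared could move a difference of FOS or PTGS2 through the shift only. The direction of FOS was also the reason for its choice. FOS lay lower and PTGS2 higher in every alternative run: with 1 array left out the FOS difference ranged from -0.95 to -0.57 at 0.5 nM and from -0.89 to -0.51 at 0.25 nM, it was -0.68 and -0.55 without the shift, and -0.69 and -0.56 as the mean of its rows. Single genes whose direction turned without the shift are named with their results. PTGS2 moved to 0.25 and 0.26 without the shift, and ranged from 0.142 to 0.171 and from 0.0868 to 0.123 with 1 array left out. Of all genes, 9372 passed at 0.5 nM and 9511 at 0.25 nM (9725 and 9982 with the replicate block; 3787 and 3944 among genes above the median level, where fewer were tested). Leaving out 1 array gave 8632 to 9773 and 8728 to 9600. The test on group means called 19 genes, 0 without the shift, 0 without the intensity trend, 35 with no value of 0.25 nM replicate 3 left out, 38 with the mean of rows and 0 to 47 with 1 array left out (0, 8 and 12 without 0.25 nM replicates 1, 2 and 3, 7, 42 and 47 without 0.5 nM replicates 1, 2 and 3, and 32 without control replicate 1); the cause was not tested. Replicate 1 differed in 916 genes, and in 581 to 3950 with 1 array left out, the lowest without control replicate 2 and the highest without control replicate 1. Leaving out arrays in the test by replicate and in the counts of listed genes was added after seeing the data, and gave 4 to 6 lower AP-1 subunits at each dose and 6 to 9 AP-1 targets by replicate.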
